A study of Homo sapiens with 22 samples.

Results

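In the CHP-134 neuroblastoma cell line, 209 of 1646 WDR5 regions did not overlap an N-MYC region, and these 209 are described here. WDR5 regions were made by merging the WDR5 peaks of the 3 libraries of DMSO-treated cells that shared at least 1 bp, and a region was kept when at least 2 libraries had a peak in it. N-MYC regions were made in the same way from the 3 N-MYC libraries of the same cells, which gave 10989 regions. A WDR5 region was counted as without N-MYC when it shared no base with any of them, and the other 1437 WDR5 regions are called regions with N-MYC. The regions were thus chosen by their WDR5 and N-MYC peaks in the DMSO lists, which are given below as description only.

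CHP-134 and IMR-32 are N-MYC amplified neuroblastoma lines. Proteins were located by ChIP-seq, in which crosslinked DNA is pulled down with an antibody and sequenced and places of read pileup are called as peaks. CHP-134 cells received DMSO or a compound for 4 h, each with 3 libraries for N-MYC and 3 for WDR5, and IMR-32 cells were untreated, with 2 libraries for each protein. The labels name the compound in more than one way (419C91, C38b and C91), and it is not identified here. N-MYC was pulled down with a custom serum and WDR5 with a commercial antibody, and each library pooled 3 ChIPs of the same sample. The methods describe the ChIP-seq experiments as independent repeats and do not say whether these came from separate cultures, so p-values measure the spread between these libraries, part of which may be technical. CHP-134 libraries were sequenced as single reads and IMR-32 libraries as read pairs on another instrument, so the cell line and the sequencing cannot be told apart. IgG libraries were not analysed here.

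The 16 deposited peak lists differed in length, and 3 of them stood apart. WDR5 replicates 2 and 3 of the compound group listed 15 and 401 peaks against 5973 in replicate 1, and N-MYC replicate 2 of the compound group listed 2964 peaks against 11249 and 12313. The DMSO lists held 1671 to 4891 WDR5 peaks and 9125 to 15286 N-MYC peaks, and the IMR-32 lists held 1258 and 1693 WDR5 peaks and 5242 and 8286 N-MYC peaks. The lists hold no read counts, so depth is unknown, and a region without a listed peak is one where no peak passed the authors' q-value, not one shown to lack the protein.

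WDR5 is a WD40-repeat protein that serves as a scaffold. It is a subunit of the MLL/SET1 histone H3 lysine 4 methyltransferases and of other chromatin complexes, and it is known to sit at the promoters of ribosomal protein genes. N-MYC, the product of MYCN, is a basic helix-loop-helix factor that binds E-boxes such as CACGTG together with its partner MAX, and it also contacts WDR5 directly. The comparison asks where WDR5 sits in an N-MYC amplified line when N-MYC is not called beside it.

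The windows below lay on the WDR5 summits of 4 of the strongest such regions and are shown because they held no CACGTG within 100 bp of the summit. Each is 201 bases long, on the plus strand of hg19 (GRCh37), and they were taken in order of mean WDR5 fold percentile in the DMSO lists, leaving out windows that touched an annotated UTR and regions that are not reported here on their own. Capitals mark CCGGAA, the core of an ETS factor site, on either strand, and neither CACGTG nor the GC box GGGCGG was found in any of the 4 on either strand. The regions lay at the start of RPS4X (chrX:71496813-71497013), of ZNF621 (chr3:40566071-40566271), of ST6GALNAC6 (chr9:130661450-130661650) and of DTNB (chr2:25896715-25896915).
RPS4X: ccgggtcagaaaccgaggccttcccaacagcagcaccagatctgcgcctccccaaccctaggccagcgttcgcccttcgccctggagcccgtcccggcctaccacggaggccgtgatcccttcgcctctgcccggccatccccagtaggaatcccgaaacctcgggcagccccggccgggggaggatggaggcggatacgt
ZNF621: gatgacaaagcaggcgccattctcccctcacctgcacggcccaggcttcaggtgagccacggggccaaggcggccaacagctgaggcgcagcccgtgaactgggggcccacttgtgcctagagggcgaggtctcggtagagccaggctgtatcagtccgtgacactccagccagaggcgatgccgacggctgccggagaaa
ST6GALNAC6: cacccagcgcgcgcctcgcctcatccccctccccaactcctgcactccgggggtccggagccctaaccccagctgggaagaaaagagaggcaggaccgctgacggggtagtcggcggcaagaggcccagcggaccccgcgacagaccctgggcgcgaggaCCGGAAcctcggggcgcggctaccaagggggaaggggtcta
DTNB: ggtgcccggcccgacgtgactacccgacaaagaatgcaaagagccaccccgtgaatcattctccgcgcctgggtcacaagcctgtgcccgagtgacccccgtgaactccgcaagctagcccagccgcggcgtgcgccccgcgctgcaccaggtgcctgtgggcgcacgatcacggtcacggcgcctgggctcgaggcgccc

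Among the 209 regions, 5 held CACGTG within 100 bp of the WDR5 summit, which is 2.39% (95% exact Clopper-Pearson interval 0.781 to 5.49) against 24.7% (22.5 to 27.0) of the regions with N-MYC and 21.9% of all WDR5 regions. In windows of the same length 2 kb away from the same summits, 2 of the 209 (0.957%) held it. Since N-MYC chose the regions and CACGTG is its site, this difference is a description. The 5 stretches of 30 bases below are shown because they are the exceptions, with CACGTG in capitals, in hg19 on the plus strand. They lay near LINC00368 (chr13:111704425-111704454), GOLGA6A (chr15:74392604-74392633) and BORCS6 (chr17:8095594-8095623) and at the starts of SLC38A7 (chr16:58718643-58718672) and BRME1 (chr19:14016790-14016819). For 3 of them, near LINC00368 and BORCS6 and at SLC38A7, no N-MYC peak was called in any of the 8 N-MYC lists, while the other two had a peak in 1 DMSO and 1 IMR-32 list.
LINC00368: tcacgagaccctCACGTGagaagcaggtca
GOLGA6A: tgagtcgacgatCACGTGacttggactaac
SLC38A7: cggctgcggagaCACGTGagcatgcatcac
BORCS6: gccaggaacaggCACGTGacccaaaactgg
BRME1: aggccgagagccCACGTGaagccggagccc

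Other motifs were less unequal. CACGCG, a non-canonical E-box, was in 7.18% of the 209 windows and 19.1% of those with N-MYC (17.6% of all), and the GC box GGGCGG, bound by SP factors, in 31.6% against 48.6% (46.5% of all). The ETS core CCGGAA was in 16.7% against 14.1% (14.5% of all), and AAGATGGC, the site of YY1, in 3.35% against 2.64% (2.73% of all). CAGCTG, an E-box that many other helix-loop-helix factors bind, was in 12.4% against 11.7% (11.8% of all). Both strands were searched, and a match is a description of the letters only. The windows without N-MYC had a median GC content of 61.7% and 13 CpG dinucleotides, against 66.7% and 18 in the windows with N-MYC. The part of base composition in these motif shares was not tested.

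How far the regions were from N-MYC depended on the lists asked for. Of the 209, 112 had no N-MYC peak in any DMSO list and 95 had a peak in a single DMSO list, which was replicate 1 for 68, replicate 2 for 9 and replicate 3 for 18. In the remaining 2, at PANK1 and MAB21L1, N-MYC peaks of replicates 1 and 3 touched the region at places that did not overlap each other. Counted by list, 33.5%, 4.31% and 9.57% of the 209 touched an N-MYC peak of DMSO replicates 1, 2 and 3, against 90.4%, 78.7% and 85.2% of all 1646 WDR5 regions, and the list with the most, replicate 1, was the longest. The DMSO WDR5 lists held 97.6%, 79.4% and 69.9% of the 209, against 96.8%, 79.6% and 70.5% of all, and 98 of the 209 were in all 3. These shares follow from the rule, and nothing is read from them. Without N-MYC replicate 1 the count of regions was 398, and without N-MYC replicate 3 it was 360, both more than 1.5 times 209. Without WDR5 replicate 1, whose list was the longest of its group, the count was 104.

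The gap from a region to the nearest N-MYC region had a median of 60374 bp. It was under 500 bp for 15 regions, from 500 bp to under 1 kb for 6 and 100 kb or more for 68. Just inside the rule were the regions upstream of NCL, which encodes nucleolin, at 19 bp from an N-MYC region, in PFKFB3 at 96 bp and at DTNB at 107 bp. Just outside it were regions with N-MYC at POLR2A (chr17:7387200-7387836), SNHG16 and PLD5P1, which overlapped N-MYC regions by 52, 94 and 97 bp. At the other end, the regions at IDS, FRG1 and an unnamed gene on chromosome 16 (ENSG00000260958) were 1479985, 2867706 and 2969967 bp from an N-MYC region. These gaps are to N-MYC regions of at least 2 DMSO lists and do not count peaks of a single list. FRG1 itself had N-MYC peaks in DMSO replicate 1 (percentile 62.5), compound replicates 1 and 3 (77.9 and 35.1) and IMR-32 replicate 2 (9.41). PFKFB3 had one in DMSO replicate 1 (37.7). IDS and ENSG00000260958 had none in any N-MYC list.

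Next, the regions were followed in the 10 lists that the rule did not use. The share of regions listed for WDR5 was higher without N-MYC than with it in both IMR-32 lists and lower in all 3 compound lists, and the tests below, given the few libraries, could not reach 0.05. In the IMR-32 WDR5 lists, 68.4% (replicate 1) and 62.2% (replicate 3) of the 209 regions had a peak, against 43.4% and 37.9% of the regions with N-MYC; over all 1646 WDR5 regions the shares were 46.6% and 41%. Both IMR-32 lists held 127 of the 209 regions (60.8%), against 34.4% of the regions with N-MYC and 37.8% of all.
In the compound WDR5 lists, 22.5%, 0% and 3.35% of the 209 regions had a peak in replicates 1, 2 and 3, against 50.5%, 0.974% and 15.1% of the regions with N-MYC (47%, 0.851% and 13.6% of all). For the list with none of the 209, the upper limit of the interval was 1.75%. At least 1 compound list held 50 regions (23.9%), against 53.7% of the regions with N-MYC and 49.9% of all. No other WDR5 list held 44 of the 209 (21.1%), against 27.5% of the regions with N-MYC and 26.7% of all.

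**Figure D1:**
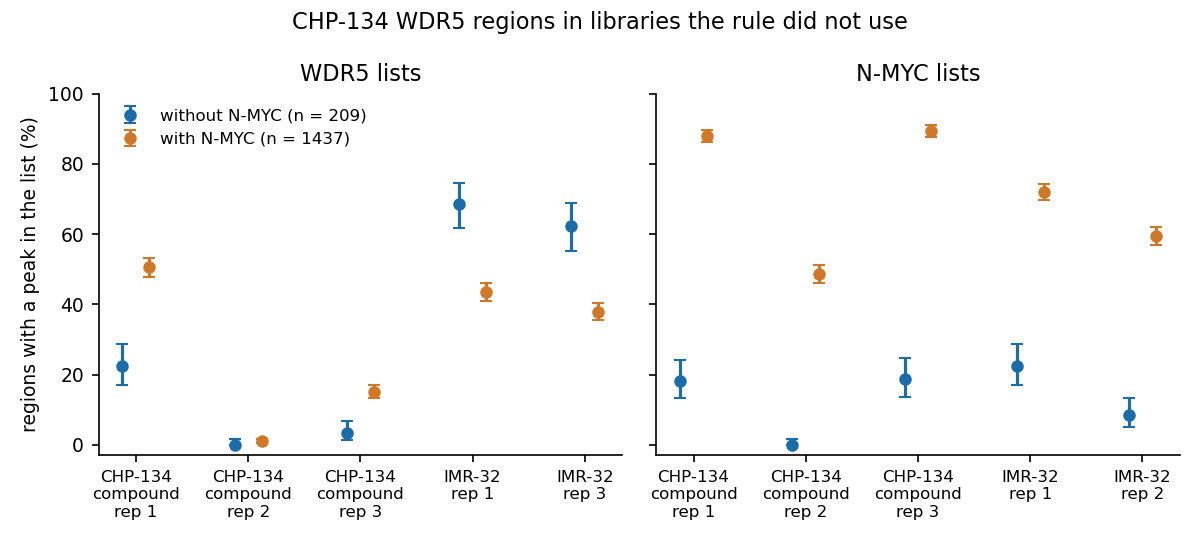
Share of CHP-134 WDR5 regions with a peak (%, y axis) in each of the 5 WDR5 lists (left) and 5 N-MYC lists (right) that the rule did not use, for the 209 regions without N-MYC (blue) and the 1437 with N-MYC (orange), with 95% exact Clopper-Pearson intervals over regions. Blue lies above orange in both IMR-32 WDR5 lists (68.4% and 62.2% against 43.4% and 37.9%) and below it in the other 8 lists.

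The difference in share, regions without minus regions with N-MYC, was 24.997 and 24.275 percentage points in the IMR-32 lists and −28.0, −0.974 and −11.8 in the compound lists. Its mean was 24.6 ± 0.511 (SD, n = 2) in IMR-32 and −13.6 ± 13.6 (SD, n = 3) with the compound. The difference between these groups of libraries was 38.2 percentage points, with p = 0.1 in an exact two-sided permutation test, the smallest p that 3 against 2 libraries allow. Over all 5 lists the mean was 1.70 ± 23.0 (SD, n = 5), with p = 1 in an exact two-sided sign-flip permutation test whose smallest p is 0.0625. The opposite signs therefore rest on few libraries, and the compound replicate with 15 peaks could show next to no difference. With compound replicates 2 and 3 left out together, an alternative chosen after seeing the data, the mean over the remaining 3 lists was 7.08.

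The stronger WDR5 regions were listed in IMR-32 more often in both sets, and the difference was seen within bands of strength. Strength is given here as a percentile, the share of a list's peaks whose fold over background was equal or lower, because folds cannot be compared between lists. A mean percentile was taken over the lists that had a peak, and lists without one were left out of it. Among regions with a mean DMSO percentile of 75 to 100, 69 without N-MYC were listed in IMR-32 replicates 1 and 3 at 88.4% and 85.5%, against 80.7% and 77.9% of 353 with N-MYC. Between 25 and 50, the shares were 50.0% and 48.0% of 50 regions against 28.3% and 22.4% of 434. In the compound replicate 1 list the order was the opposite in each band, with 14.5% against 57.8% in the strongest band and 40.9% against 47.3% in the weakest.
The same held by position. Within 1 kb of a transcription start site (TSS), 68.9% and 62.8% of 164 regions were in IMR-32 replicates 1 and 3, against 46.8% and 41.2% of 1249 with N-MYC. Farther away, 66.7% and 60% of 45 regions were listed, against 21.3% and 16.5% of 188. For compound replicate 1 the shares were 20.1% against 51.9% near a TSS and 31.1% against 41.5% farther away. These bands were drawn after seeing the data and carry no test.

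**Figure D2:**
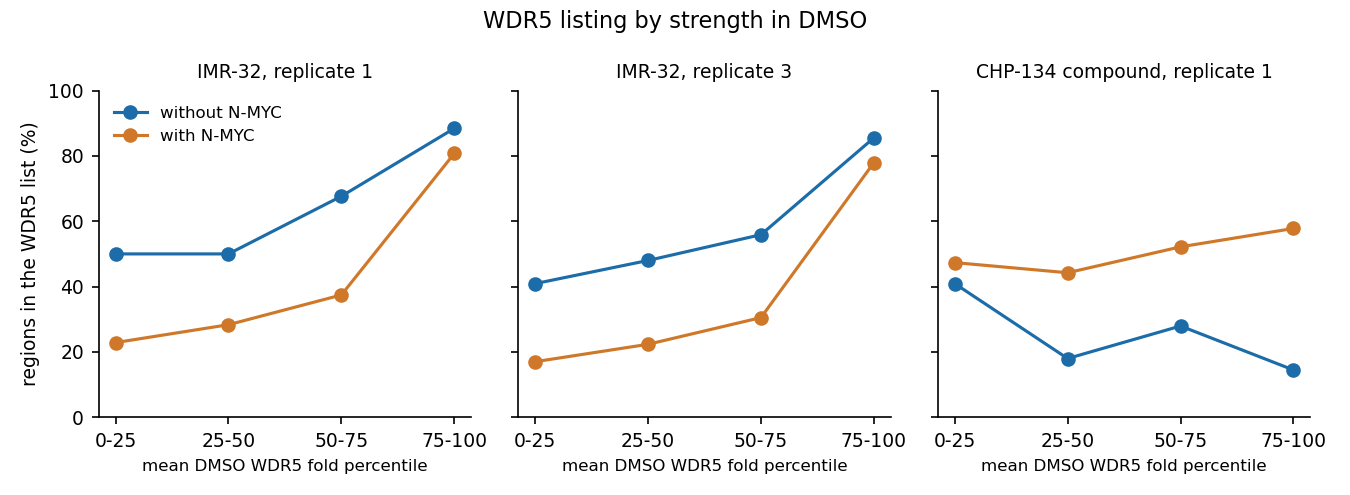
Share of CHP-134 WDR5 regions with a peak (%, y axis) in both IMR-32 WDR5 lists and in compound WDR5 replicate 1, by mean fold percentile in the DMSO WDR5 lists (x axis, 4 bands), for regions without (blue) and with N-MYC (orange). Blue is above orange in every band in IMR-32 (88.4% against 80.7% in the top band of replicate 1) and below it in every band with the compound (14.5% against 57.8%).

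Levels within a list, where a region was listed, had the same order. In the IMR-32 lists the median WDR5 percentile was 80.3 and 75.9 for regions without N-MYC and 71.5 and 67.7 for regions with it. In compound replicates 1 and 3 it was 48.2 and 32.4 against 57.0 and 55.1, the last resting on 7 listed regions. Over these 4 lists the mean difference was −3.64 ± 15.1 percentile points (SD, n = 4), with p = 0.75 in the exact sign-flip permutation test, which cannot go below 0.125. For description, the DMSO lists that chose the regions had medians of 77.8, 66.5 and 66.6 without N-MYC against 71.5, 55.9 and 57.8 with it.

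N-MYC stayed uncommon at these regions in the libraries the rule had not used. The compound N-MYC lists held 18.2%, 0% and 18.7% of the 209 regions in replicates 1, 2 and 3, against 88.0%, 48.6% and 89.4% of the regions with N-MYC (79.2%, 42.4% and 80.4% of all). In IMR-32 the shares were 22.5% and 8.61% against 72.0% and 59.4% (65.7% and 52.9% of all). The share was lower at the 209 regions in 5 of 5 lists, by a mean difference of −57.9 ± 11.4 percentage points (SD, n = 5), and p = 0.0625 was the smallest the exact two-sided sign-flip permutation test can give. Without compound N-MYC replicate 2 the mean difference was −60.2.
Where N-MYC was listed, it was weak. Its median percentile was 37.9 and 26.3 in compound replicates 1 and 3 and 24.4 and 21.6 in IMR-32, against 70.2 to 77.8 in the same lists at regions with N-MYC. At least 1 of these 5 lists held an N-MYC peak at 93 of the 209 regions (44.5%; 91% of all WDR5 regions), and 80 regions had no N-MYC peak in any of the 8 lists.

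The regions with no DMSO N-MYC peak at all and those with a single one were not alike in the other lists. Of the 112 with none, 28.6% had an N-MYC peak in 1 of the other 5 lists or more, against 62.1% of the 95 with 1. WDR5 was in both IMR-32 lists for 68.8% of the 112 and 51.6% of the 95, and in a compound list for 15.2% and 33.7%. These shares are descriptions of the same libraries and have no test.

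In compound-treated cells the share of the 209 regions with a WDR5 peak had a mean of 8.61% ± 12.1 (SD, n = 3). That with an N-MYC peak had a mean of 12.3% ± 10.6 (SD, n = 3). The difference was −3.67 percentage points (exact two-sided permutation p = 1, smallest possible 0.1). The WDR5 lists held 5973, 15 and 401 peaks and the N-MYC lists 11249, 2964 and 12313. A share listed depends on the length of the list, so this comparison cannot tell whether the proteins differ at these regions. With both replicate 2 libraries left out, an alternative chosen after seeing the data, the difference was −5.50. The N-MYC share with the compound and that in IMR-32, 15.6% ± 9.81 (SD, n = 2), differed by −3.27 percentage points (exact permutation p = 0.8, smallest possible 0.1). No DMSO share can be set beside them, since the DMSO lists chose the regions.

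Among named regions, the strongest was at RPS4X, an X-linked gene for a protein of the small ribosomal subunit (chrX:71496444-71497688, its middle in the UTR 32 bp from the TSS). Its WDR5 fold over background was 81.0, 27.2 and 46.6 in DMSO replicates 1, 2 and 3, at percentiles of 99.98, 95.1 and 97.2. In IMR-32 the folds were 127 and 102, at percentiles 96.1 and 94.3, and in compound replicate 1 the fold was 4.64 at percentile 70.3. An N-MYC peak was listed there in DMSO replicate 1 (fold 7.37, percentile 81.8) and in IMR-32 replicate 2 (fold 4.13, percentile 9.41) and in none of the other 6 N-MYC lists.
ZNF621, a zinc finger gene, had WDR5 folds of 23.7, 24.5 and 20.9 in DMSO and 47.4 and 62.9 in IMR-32, with N-MYC peaks in DMSO replicate 3 and both IMR-32 lists. At DTNB, which encodes a dystrobrevin of the dystrophin complex, the DMSO folds were 20.8, 22.9 and 17.998 and the IMR-32 folds 43.0 and 64.2, without a peak in any N-MYC list although an N-MYC region lay 107 bp away. GET1, a receptor for tail-anchored proteins at the endoplasmic reticulum, had folds of 16.5, 17.97 and 17.88 in DMSO and 37.4 and 47.7 in IMR-32, also with no N-MYC peak in the 8 lists.

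Other strong regions were at ST6GALNAC6, a sialyltransferase gene, 10841 bp from the TSS of the homeobox gene GBX2, and at MAGED2, an unnamed gene on chromosome 3, CTC-338M12.4, ZMYM1, the potassium channel gene KCNJ8, 1012 bp from a TSS of the corepressor gene SIN3A, and PPP2R5C, a regulatory subunit of protein phosphatase 2A. The 15 strongest were taken from the 98 regions in all 3 DMSO WDR5 lists, and 13 of them are named here. Their mean DMSO percentiles were 93.1 to 97.4, values that chose them. All but MAGED2 were in both IMR-32 lists, while only RPS4X and the region near GBX2 were in a compound WDR5 list. Of the 98 regions they were taken from, 83 (84.7%) were in both IMR-32 WDR5 lists and 18 (18.4%) in a compound WDR5 list, so neither trait is particular to the strongest. MAGED2 had WDR5 folds of 18.6, 14.4 and 15.3 in the DMSO lists and no peak of either protein in any of the other 13 lists.

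**Figure D3:**
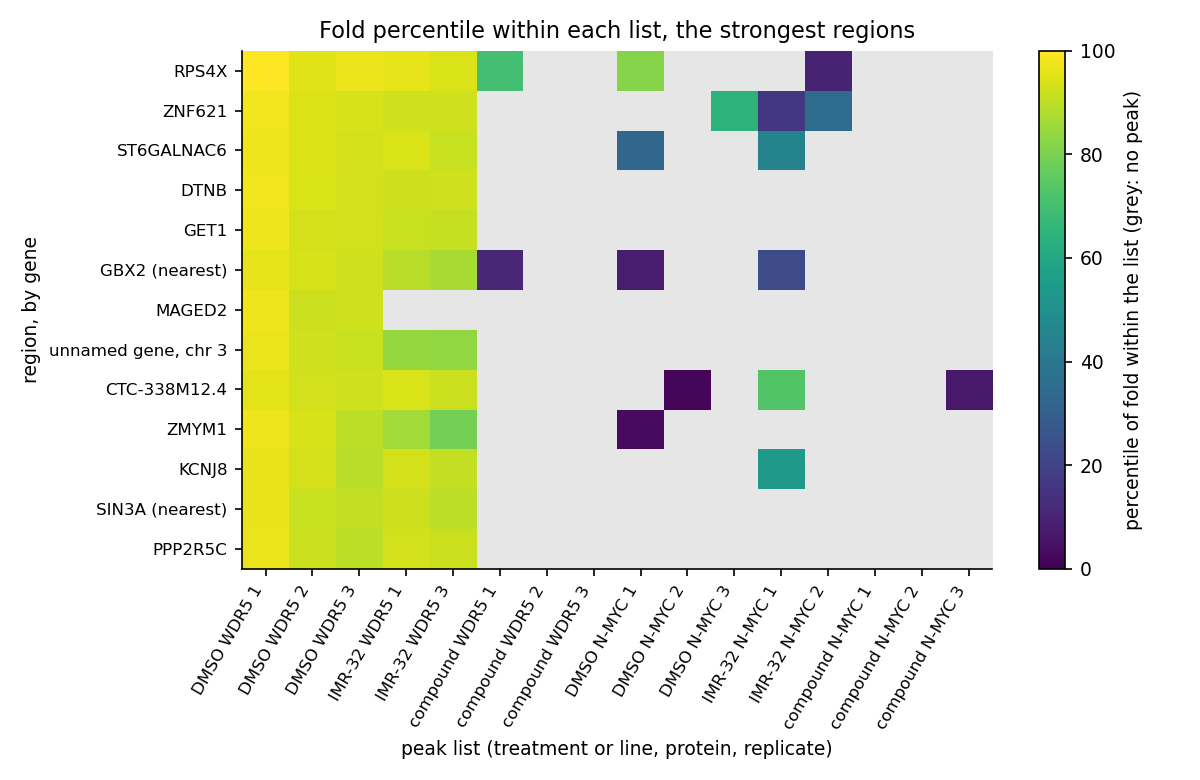
Fold percentile within each of the 16 peak lists (colour, 0 to 100; grey, no peak) for 13 of the 15 regions without N-MYC that had the highest mean percentile in the DMSO WDR5 lists; columns are peak lists and rows are regions by gene. The DMSO and IMR-32 WDR5 columns are filled except for MAGED2 in IMR-32, while compound WDR5 lists hold only RPS4X (percentile 70.3) and the region near GBX2. Of the 98 regions in all 3 DMSO WDR5 lists, 84.7% were in both IMR-32 WDR5 lists and 18.4% in a compound WDR5 list.

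WDR5 in both IMR-32 lists and at least 1 compound list was seen at 21 of the 209 regions (10.0%), against 20.8% of the regions with N-MYC and 19.4% of all, among them TASOR, a component of the HUSH silencing complex, POGK, IPO9, MTMR4, NDUFB8, PTPN11 and NCL. TASOR was the only one of the 21 in 2 compound lists, with WDR5 folds of 11.7, 9.31 and 9.88 in DMSO, 5.39 and 4.39 in compound replicates 1 and 3, and 11.2 and 14.9 in IMR-32. In all, 4 of the 209 regions were in 2 compound lists, where 10.7% of all WDR5 regions were in 2 or more, and CTNS, ZNF423 and GPATCH3, the other three, were in no IMR-32 WDR5 list. NCL had WDR5 folds of 4.93, 7.21 and 5.54 in DMSO and 9.755 and 11.7 in IMR-32, and a compound N-MYC replicate 1 peak at percentile 99.99 that reached into the region.

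Both lines can be set side by side at the 127 regions in both IMR-32 WDR5 lists, of which 54 had no N-MYC peak in the 8 lists. Mean percentiles in DMSO and IMR-32 had a Spearman's rho of 0.53 and a Pearson's r of 0.45 across these regions, against 0.78 and 0.69 across 495 regions with N-MYC. These correlations are across regions that share the same libraries and are descriptions. MRPS9 was among the regions off the line: its WDR5 percentile was 8.70 and 11.6 in DMSO replicates 2 and 3, 52.1 in compound replicate 1 and 81.1 and 74.8 in IMR-32. DDX1 was another, with mean percentiles of 0.0606 in DMSO and 69.3 in IMR-32. In the other direction, the region at SMNDC1, chosen after its values were seen, had mean percentiles of 90.1 in DMSO and 32.2 in IMR-32. The region nearest to RAD18 had 84.1 and 20.3.

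**Figure D4:**
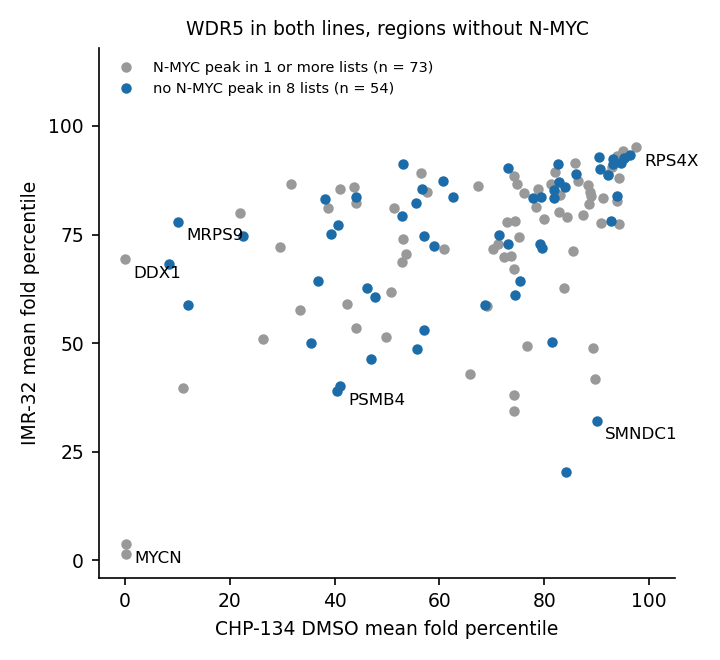
Mean WDR5 fold percentile in CHP-134 DMSO lists (x axis) against that in the 2 IMR-32 lists (y axis). Points are the 127 regions without N-MYC that are in both IMR-32 WDR5 lists. The DMSO mean is over the lists with a peak, and 83 of the 127 had one in all 3. Blue points (54) have no N-MYC peak in any of the 8 N-MYC lists, and grey points (73) have a peak in 1 or more. Most regions above percentile 80 in DMSO are high in IMR-32 too. MRPS9 (left, low in DMSO) and SMNDC1 (right, low in IMR-32) are among the regions that lie off this trend.

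A stricter set had WDR5 in all 3 DMSO and both IMR-32 lists and N-MYC in none of 8. It held 35 of the 83 regions with WDR5 in those 5 lists, 26 of them within 1 kb of a TSS and 3 on chromosome X, and 1 of the 35 was in a compound WDR5 list. Of all 209 regions, 164 (78.5%) were within 1 kb of a TSS, 11 (5.26%) on chromosome X and 50 (23.9%) in a compound WDR5 list. Of all 1646 WDR5 regions, 85.8% were within 1 kb of a TSS, 49.9% in a compound WDR5 list and 25 regions on chromosome X. It included DTNB, GET1, PPP2R5C, SLC25A35 and PSMB4 and, chosen after their values were seen, MDK, which encodes the growth factor midkine, TAF7, a subunit of TFIID, and EPC1, a subunit of the NuA4 acetyltransferase.

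The genes of the regions were then read against 14 gene lists. A TSS of 168 protein-coding genes (0.834% of 20149) and 55 long noncoding RNA genes lay within 1 kb of the middle of a region without N-MYC, and regions with N-MYC reached 6.91% of protein-coding genes. Only 4 protein-coding genes were reached by both.
Of 88 cytosolic ribosomal protein genes 1 (RPS4X, 1.14%) was at a region without N-MYC, close to the share of all protein-coding genes, and 54 (61.4%) were at regions with it. Translation initiation and elongation factor genes gave 0 of 69 against 18 (26.1%). Mitochondrial ribosomal protein genes gave 2 of 78 (MRPL47 and MRPS9, 2.56%) against 9 (11.5%). Small nucleolar RNA host genes gave 1 of 29 (SNHG11, 3.45%) against 11 (37.9%). The sets of regions differ in size, so each pair of shares of protein-coding genes has to be read beside 0.834% and 6.91%. The small nucleolar RNA host genes include noncoding genes, for which no such share is given here. SNHG11 had WDR5 folds of 9.50, 6.80 and 6.20 in DMSO, 4.38 in compound replicate 1 and 31.9 and 31.3 in IMR-32, with weak N-MYC peaks in DMSO replicate 1 (fold 4.16) and IMR-32 replicate 1 (fold 3.77).

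Of 39 proteasome subunit genes, 3 (7.69%) were at regions without N-MYC and 0 at regions with it. They were PSMB4 of the catalytic core and PSMD7 and PSMD11 of the regulatory particle. PSMB4 (chr1:151371257-151372300) had WDR5 folds of 4.03, 5.21 and 4.23 in DMSO and 5.34 and 6.11 in IMR-32, and no N-MYC peak in 8 lists. PSMD11 was in DMSO WDR5 replicates 1 and 2 alone, with folds of 5.35 and 6.09. PSMD7 was in the same 2 lists, with folds of 4.83 and 5.30, and had N-MYC peaks in DMSO replicate 1 and compound replicate 1 with folds of 5.57 and 6.89. With 3 genes this is a count only.

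Of the DNA repair genes 3 of 80 (3.75%) were at regions without N-MYC (EXO1, BRIP1 and ERCC4) and 19 (23.75%) at regions with it. The shares of all protein-coding genes were 0.834% and 6.91%. EXO1, an exonuclease of mismatch repair, had WDR5 folds of 12.2, 14.1 and 9.195 in DMSO and 35.2 and 27.4 in IMR-32 and N-MYC peaks in 4 of 8 lists, while ERCC4, the XPF endonuclease gene, had none. Cell cycle and replication genes gave 1 of 73 (PLK4, which controls centriole duplication, 1.37%) against 17 (23.3%). Splicing genes gave 1 of 55 (SF3B6, 1.82%) against 19 (34.5%), and genes of WDR5 complexes 0 of 34 against 8 (23.5%). Zinc finger (ZNF) genes gave 5 of 514 (ZNF423, ZNF473, ZNF585A, ZNF621 and ZNF682, 0.973%) against 31 (6.03%). Solute carriers gave 3 of 337 (SLC16A14, SLC25A35 and SLC38A7, 0.890%) against 19 (5.64%). HOX genes gave 0 of 39 against 3 (7.69%), and replication-dependent histone genes 0 of 66 against 0.

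Adrenergic neuroblastoma transcription factors gave 1 of 23 (4.35%), MYCN itself, against 0. The MYCN region (chr2:16080067-16080592, 342 bp from a TSS, in a noncoding exon) had WDR5 folds of 1.40 and 1.38 in DMSO replicates 1 and 3 and no peak in replicate 2, which put it at percentiles of 0.102 and 0.180. Compound replicate 1 had a WDR5 fold of 1.55, and IMR-32 replicates 1 and 3 had 3.11 and 3.12. N-MYC was listed at the MYCN region in IMR-32 replicates 1 and 2, at folds of 4.22 and 4.55 and percentiles of 20.6 and 18.2, and in no CHP-134 list. DDX1, an RNA helicase gene of the same chromosome band, had DMSO folds of 1.37 and 1.37 (chr2:15731570-15732572), but in IMR-32 the WDR5 folds were 9.96 and 9.03, and N-MYC was listed at folds of 13.4 and 13.9, the 97.5th and 97.3rd percentiles. A pair of regions 404 bp apart (chr2:15084079-15084513 and chr2:15084918-15085407) had folds of 1.33 to 1.504. The only other pair within 10 kb was on chromosome 7 near LINC03073, with a gap of 2703 bp.
The 4 regions of this stretch of chromosome 2 had the lowest folds of the 209, and the lowest DMSO WDR5 fold of the others was 2.29. In the whole DMSO WDR5 lists, 10 of 10 peaks of replicate 1 and 6 of 6 of replicate 3 with a fold under 2 lay on chromosome 2 between 14 and 17 Mb, and replicate 2 had none. MYCN is amplified in both lines. Copy number was not measured here, and its part in these folds was not tested.

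Chromosome X held 11 of the 209 regions (5.26%) against 14 (0.974%) of the regions with N-MYC, so that 44% of the 25 WDR5 regions on X were without N-MYC, against 12.7% of all 1646. Of all N-MYC regions, 1.41% were on X. Besides RPS4X and MAGED2, they included regions at KDM5C, a histone H3 lysine 4 demethylase gene, FAM50A, TMSB15B, APEX2 and IDS, and nearest to RBBP7, ARAF and RLIM. Of the 11, 9 were in both IMR-32 WDR5 lists and 1 in a compound WDR5 list. The shares were 60.8% and 23.9% over all 209 regions and 37.8% and 49.9% over all 1646. With 11 regions this is a count only. Chromosome 2, which holds the 4 regions above, had 25 (11.96%) against 6.54%, and chromosome 17 had 14 (6.70%) against 10.4%.

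Finally, position was examined. The middle of 164 of the 209 regions (78.5%) lay within 1 kb of a TSS, against 86.9% of the regions with N-MYC and 85.8% of all, and 27 (12.9%) were beyond 10 kb, against 6.96%. By the peaks of each DMSO library, 78.9%, 78.3% and 80.8% of peaks at regions without N-MYC were near a TSS, against 87.3%, 87.2% and 87.7%. The mean difference was −8.06 percentage points. These 3 libraries chose the regions and share most of them, so the values are a description. By annotation, the middle of 77 regions was in an intron, of 55 outside genes, of 41 in a UTR, of 21 in a noncoding exon and of 15 in a coding exon. The strongest beyond 10 kb were nearest to GBX2, an unnamed gene on chromosome 21, GOLGA6L9, RAD18 and TCAF1. Of these 5, GOLGA6L9 alone was absent from IMR-32, and the region nearest to RAD18 had WDR5 percentiles of 80.0, 88.1 and 84.1 in DMSO and 33.2 and 7.51 there.

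Most WDR5 summits near a TSS lay downstream of it. Of the 163 summits within 1 kb of a TSS, 112 (68.7%) were downstream, against 55.7% for regions with N-MYC. Over all summits within 1 kb, upstream ones included, the median position was 84 bp downstream, against 25 bp for regions with N-MYC. By each DMSO library's own summits, 67.9%, 68.2% and 62.4% were downstream, against 56.9%, 57.8% and 55.9%, a difference of 10.99, 10.46 and 6.46 percentage points. These too are descriptions of the libraries that chose the regions. The regions were 337 to 1794 bp wide, with a median of 635 bp against 698 bp with N-MYC.

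**Figure D5:**
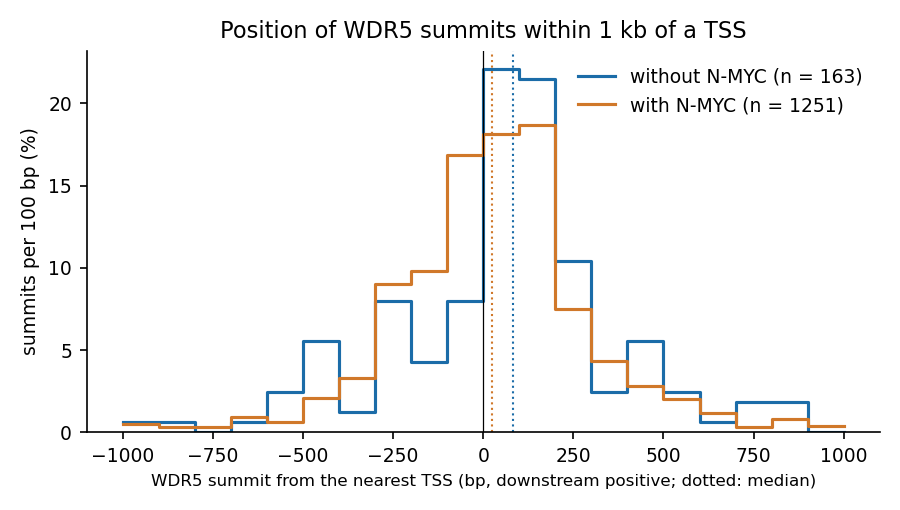
Distance of WDR5 summits from the nearest TSS (x axis, bp, downstream positive) as a share of summits per 100 bp (y axis, %), for 163 regions without N-MYC (blue) and 1251 with N-MYC (orange), with medians of 84 and 25 bp as dotted lines. In the 100 bp before the TSS lie 7.98% of the blue and 16.9% of the orange summits.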

How the data were processed

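ChIP-seq peak lists of N-MYC and WDR5 from 16 libraries were used; the 6 IgG samples were not analysed here. Per the authors' methods, Cutadapt trimming was followed by Bowtie2 alignment to hg19 and by MACS2 peak calling, one library at a time, at a q-value of 0.05; versions and the control library are not given in the sources used here. The deposited fold is a linear ratio over local background, the deposited p-values and q-values are on a −log10 scale, and the deposited score is derived from the q-value and was not used. Folds were ranked within a list only. Depth is unknown, and intervals cover counting of regions only. The extract protocol gives 0.005% DMSO and the treatment protocol 0.0005%.

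Peaks were merged at 1 bp in Python 3.11.15 (pandas 2.3.3, numpy 2.4.6, scipy 1.17.1, pysam 0.24.0), after the rule DiffBind applies; DiffBind was not run. A region's value in a list is its highest fold there. Genes came from 84651 TSSs of basic protein-coding and long noncoding transcripts in GENCODE 44 lifted to GRCh37, and sequence from the GRCh37 assembly. Regions were named by genes with a TSS within 1 kb of the middle, else by the nearest TSS. Named regions were the 15 strongest in all 3 DMSO WDR5 lists, those in both IMR-32 and a compound list, the 5 strongest beyond 10 kb, those nearest to and farthest from N-MYC, those holding a gene of the 14 lists and pairs within 10 kb. Groups of libraries were compared with exact two-sided permutation tests, and regions within libraries with sign-flip permutation; that planned for the promoter share is not reported, since its libraries chose the regions. Merging and tests were tested on simulated data. Of the 15 strongest regions, 2 count in the totals and are not reported here on their own. The members and lists were chosen with earlier results of these data known. Alternatives were other consensus, overlap, q-value and distance rules, window sizes, means, a replicate block and leaving out each library.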

Additional observations from a re-analysis of the deposited data

Results flagged for a closer look

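The share of regions listed for WDR5 differed in opposite directions between groups of libraries. The share of the 209 regions without N-MYC minus that of the regions with N-MYC had a mean of 24.6 percentage points in the 2 IMR-32 lists and −13.6 in the 3 compound CHP-134 lists. It was above 0 in 2 of 2 IMR-32 lists and below 0 in 3 of 3 compound lists. The exact two-sided permutation p of the difference was 0.1, the smallest that 3 against 2 libraries allow. The lists differ in cell line, treatment, sequencing mode and length at once, which cannot be told apart. Groups held at most 3 libraries, too few for the test of an outlying library used here, so it was not run.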

How the results depend on the processing

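The count of 209 regions was 98 with WDR5 required in all 3 DMSO lists and 112 when an N-MYC peak in any 1 list excluded a region, and leaving out each library in turn, with both others required, gave 104 to 398. The other alternatives gave 194 to 267. The difference in promoter share, a description, ranged from −12.4 to −4.70 over its alternatives and from −8.64 to −7.62 when each library was left out. The N-MYC share difference ranged from −61.3 to −51.9, and from −60.2 to −54.7 when each library was left out. The WDR5 share difference over 5 lists was −3.38 with WDR5 in all 3 lists and −4.12 to 9.14 when each library was left out, since the groups of lists go opposite ways. The WDR5 percentile difference was 6.09 when only overlap of at least 50 percent of a region excluded it, and −7.79 to 2.71 without each library. The compound WDR5 share minus the N-MYC share was 0.298 when any 1 N-MYC list excluded a region, and −10.6 to 0.638 without each library; the N-MYC share with the compound minus IMR-32 ranged from −10.2 to 3.67 without each library. The cause of these moves was not tested. CACGTG was in 0.478% of regions within 50 bp of the summit and 3.35% within 200 bp. With the replicate number as a block, the compound comparison kept its difference of −3.67 (p = 1, exact permutation), and the block changed no call. Across regions, deviations of same-numbered libraries correlated at 0.0546, −0.0126 and 0.0198. Such a correlation leaves out effects on a whole library, so it cannot tell whether same-numbered libraries share a sample. Replicate 2 was the shortest compound list for both proteins (15 and 2964 peaks). No test of these designs could pass 0.05, so the p-values say nothing about stability. Without read counts, depth limits what a missing peak can show.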
